A study of Mus musculus with 25 samples.

Results

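Liver tumors of mice whose hepatocytes lack Mcl-1 were compared with the non-tumor liver of the same animals. The members are 14 of the 25 arrays of the series, chosen by their labels alone: each of 7 untreated knockout mice, 3 of them 8 months and 4 of them 12 months old, gave 1 sample labelled as hepatocellular carcinoma and 1 labelled as the corresponding non-tumor tissue, and samples were paired by the animal number. The tumor and non-tumor samples both come from mice with the hepatocyte-specific Mcl-1 deletion, so that their difference does not compare knockout with intact mice. The extent of the deletion in each sample was not measured. Wild-type liver of 12 months (3 mice, also untreated) serves as a level to set beside both tissues, and no wild-type liver of 8 months was analysed here. The labels do not name the promoter that drives the recombinase, the sex of the mice, or how many tumors an animal carried. Total RNA of homogenised tissue was labelled with a single dye and hybridised to one array per sample.

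Mcl-1 is an anti-apoptotic member of the BCL-2 family. It holds the effectors BAX and BAK in check at the outer mitochondrial membrane, and hepatocytes without it die readily and are replaced by division. Livers under such lasting cell death and regeneration are known to form hepatocellular carcinoma, a tumor of hepatocyte lineage that often gives up parts of the adult metabolic programme and may express fetal liver genes such as Afp again. The comparison of paired tissues asks which transcripts set the tumors apart from the liver they grew in.

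Throughout, a level is the log2 of a probe's processed signal minus the 75th percentile of its array, and a difference is the tumor level minus the non-tumor level of the same animal, so that 1 on this scale is a doubling. Levels of different genes rest on different probes and were not set against each other. Probes well above background made up 62.1% to 76.3% of the probes on the tumor arrays and 60.7% to 70.4% on the non-tumor arrays. In 6 of 7 animals both arrays lay on the same slide and were scanned on the same day. The tumor of animal 1347 lay on another slide than its non-tumor sample and was scanned on another day, together with wild-type animals 552 and 1110. Many, though not all, of the results that this animal moves are also given without it. Wild-type animal 641 stood apart with 84.8% of probes well above background. Tumor and non-tumor samples carried the same sex transcripts in each of the 7 pairs: Xist was the high transcript in 1347, 1287, 638 and 793, and the Y-linked Ddx3y and Eif2s3y in 934, 1109 and 702. Over the sex chromosome list, the mean level was -2.13, -5.01 and -2.15 in wild-type animals 552, 641 and 1110. Over the female-biased liver genes it was 0.28, 5.05 and -0.87. Wild-type animals thus differed in these lists too, and the part of sex in comparisons with wild-type liver was not tested. Of the hepatocyte defining markers, 9 of 9 were well above background on all 14 arrays. Their mean levels over the list were 6.93, 7.34 and 7.46 in tumor and 6.96, 7.42 and 7.72 in non-tumor tissue (lowest, median and highest). Wild-type liver had 7.50 to 8.04. Normal hepatocytes within a tumor sample would be bright for these markers too, so they do not identify the tumor cells.

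The targeted gene, Mcl1, was lower in both tissues than in wild-type liver of 12 months. It lies on chromosome 3 of GRCm38.p6, from 95656944 to 95663179. Its level, on the brighter of 2 probes, was 1.46, 2.58 and 2.96 in tumor (lowest, median and highest of 7), against 1.68, 2.73 and 3.06 in non-tumor tissue, and 4.47, 3.88 and 4.50 in the 3 wild-type livers of 12 months. No tumor and no non-tumor sample reached the lowest wild-type level on this probe. Tumor and non-tumor tissue differed by a mean of -0.23 (SE 0.18), with the tumor lower in 5 of 7 animals (exact sign-flip permutation test, two-sided, p = 0.266, where 7 pairs allow no p below 0.0156). A second Mcl1 probe differed by -0.0086 (same exact test, p = 0.953). On that probe some samples came close to wild type. Its highest level was 0.73 in tumor (animal 1347) and 0.98 in non-tumor tissue (animal 1287). The lowest of the wild-type livers of 12 months had 1.07 (animal 641). Whether either probe lies in the deleted part of the gene is not stated.

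No transcript passed the test for a difference between tumor and non-tumor tissue across the 7 animals. Of 24581 features tested (14813 named genes, the rest probes without a symbol), 0 passed an adjusted p of 0.05 in limma's paired test with Benjamini-Hochberg adjustment (0% called), and the smallest adjusted p was 0.999. An unadjusted p below 0.05 was reached by 998 features, or 4.06%, of which 579 were higher and 419 lower in tumor. That split turned with the scaling: it was 457 higher and 493 lower when each array's median replaced the 75th percentile, 537 and 589 after quantile normalisation, and 658 and 763 after normexp background correction with quantile normalisation. Tumor was higher than non-tumor tissue in all 7 animals for 151 of the 24227 features measured on every array (0.623%), and lower in all 7 for 213 (0.879%). Random signs over 7 independent pairs give shares of that order, so agreement in 7 of 7 animals does not by itself set a gene apart. The share at an unadjusted p below 0.05 was likewise no larger than that threshold gives without any difference. The mean difference lay above 0 for 46.5% of features and below 0 for 53.5%. For every gene and list described below, therefore, the values state what these 7 pairs showed, and no single gene among them passed the test.

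The differences between a tumor and its own liver varied in size and had little in common across animals. With 1 array per sample, the part of measurement noise in them was not tested. In animal 1347, 29.5% of features differed by more than 1, with 2106 higher and 5133 lower in tumor. In the other 6 animals this share was 10.45% to 17.2%, from animal 793 at the low end to animal 638 at the high end. Non-tumor samples of 2 animals of the same age differed by more than 1 in 17.7% to 35.1% of features, and tumors of 2 animals of the same age in 18.5% to 38.2%. In 6 of 7 animals the tumor thus lay nearer to its own liver than any 2 non-tumor samples of the same age lay to each other. Those 6 pairs shared slide and sex, while no 2 non-tumor samples of the same age shared both. The part of slide and sex was not tested. Across 24227 features, the differences of 2 animals correlated with a Pearson r of -0.45 to 0.21 over the 21 pairs of animals, with a median of 0.013. These correlations describe features that are not independent, and the arrays of some animals shared slides. The spread between animals was similar in both tissues: the SD of the level had a median of 0.56 in tumor and 0.58 in non-tumor tissue, and was larger in tumor for 45.5% of features.

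**Figure D1:**
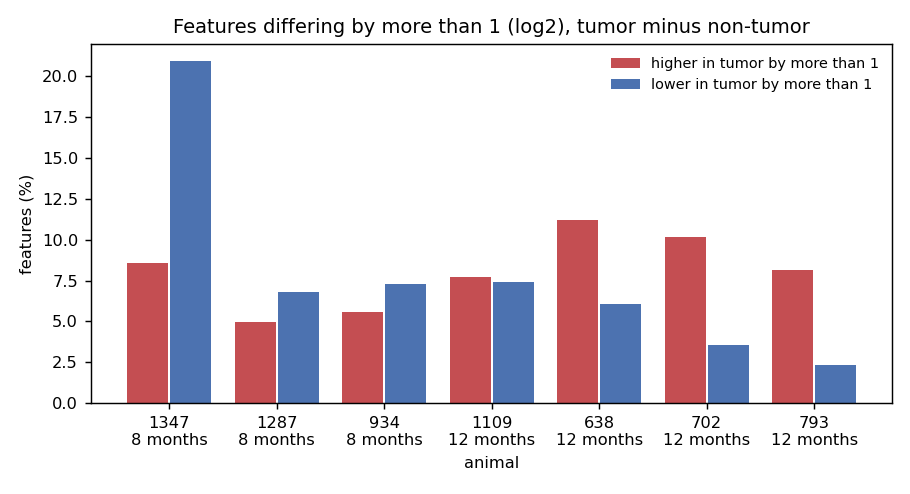
Share of features (percent, vertical axis) that differed by more than 1 on the log2 scale between the tumor and the non-tumor sample of each of the 7 animals, shown as higher in tumor (red) and lower in tumor (blue). Animal 1347, whose 2 arrays were scanned on different days, had 29.5% of features beyond this limit in either direction, against 10.45% to 17.2% in the other 6 animals.

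Enzymes that break down amino acids had a mean difference below 0 for every member of their list. The liver degrades tyrosine, histidine, serine, methionine and other amino acids for fuel, glucose and urea, a task of mature hepatocytes. All 24 genes of the list were measured and the mean difference of 24 lay below 0, with a median of -0.42, beside -0.019 over all features tested. Without animal 1347 the median was -0.30, with 23 of 24 below 0. The tumor was lower in all 7 animals for 6 of the 24 (25%, beside 0.879% over all features). An unadjusted p below 0.05 was reached by 10 of them, beside 4.06% over all features. The median over the list by animal was -0.76 in 1347, -0.40 in 1287, -0.34 in 934, -0.40 in 1109, 0.027 in 638, -0.68 in 702 and -0.19 in 793, with animal 638 alone above 0.

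Hpd encodes 4-hydroxyphenylpyruvate dioxygenase, the second step of tyrosine breakdown. Its level was 4.18, 5.91 and 7.42 in tumor (lowest, median and highest of 7), against 5.76, 7.02 and 8.01 in non-tumor tissue, and 6.93, 7.51 and 8.34 in wild-type liver. The differences were -1.65 in animal 1347, -0.65 in animal 1287, -0.86 in animal 934, -1.11 in animal 1109, -0.59 in animal 638, -1.58 in animal 702 and -0.17 in animal 793. The ranges of the 2 tissues overlapped, and the tumor was lower within each animal, by a mean of 1.92-fold, a difference of -0.94 (SE 0.20). Gnmt, glycine N-methyltransferase, which disposes of surplus methyl groups from methionine, had levels of 6.01, 7.86 and 8.39 in tumor, against 7.20, 8.38 and 8.65 in non-tumor tissue, a difference of -0.69 (SE 0.22). It was the more uneven of the pair, from -0.017 in animal 638 to -1.58 in animal 1347, and after normexp background correction its difference was -0.43. Hal, histidine ammonia-lyase, which opens the breakdown of histidine, differed by -0.62 (SE 0.16), and its levels were 3.67, 5.82 and 6.43 in tumor, against 4.62, 6.29 and 7.09 in non-tumor tissue. Wild-type livers had Hal levels of 5.37, 6.08 and 6.15, and the highest of these was passed by 2 of 7 tumors and 6 of 7 non-tumor samples. Sdsl, a serine dehydratase-like gene, differed by -0.47 (SE 0.14), with -0.88 to -0.11 over animals. Sds, serine dehydratase, and Fah, the last enzyme of tyrosine breakdown, completed the 6 with differences of -0.53 (SE 0.17) and -0.34 (SE 0.14), and Fah is named here because its values had been seen.

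**Figure D2:**
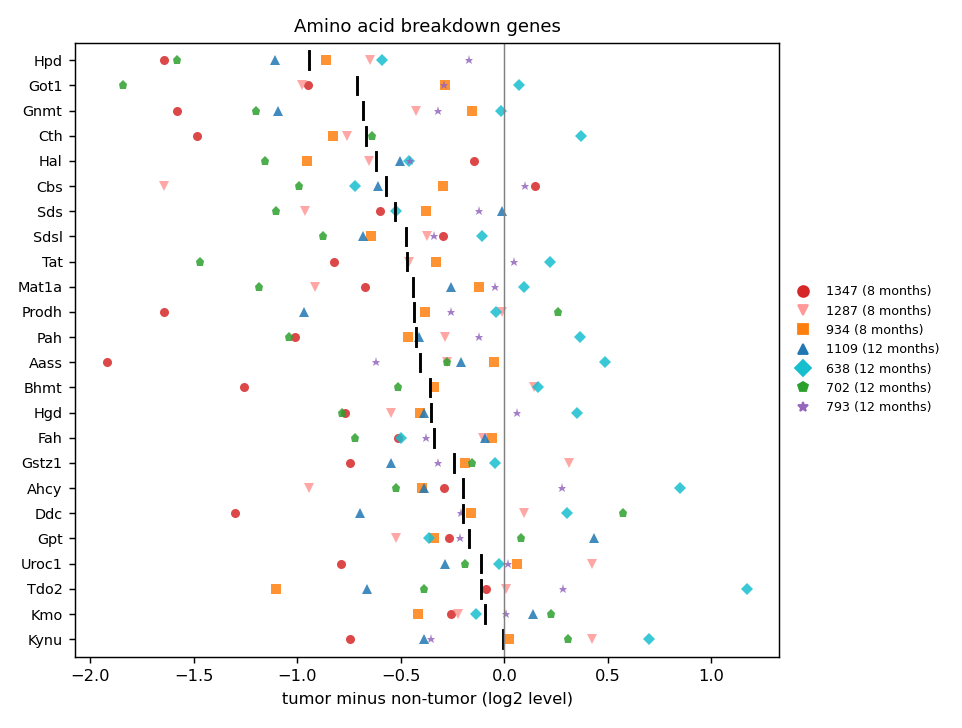
Difference between tumor and non-tumor tissue (log2 level, horizontal axis) of the 24 amino acid breakdown genes, with a symbol per animal and a black line at the mean difference from the paired fit. The means of all 24 genes lie below 0, and the symbols of Hpd, Gnmt, Hal, Sds, Sdsl and Fah lie below 0 in all 7 animals.

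The promoters of Hal and Gnmt are shown because both genes were lower in tumor in 7 of 7 animals. They cover 250 bases before to 50 after the transcription start, from RefSeq on GRCm38.p6. Capitals mark the letters CCAAT and TATAAA, searched on both strands.
Hal, chr10:93488518-93488817, plus strand: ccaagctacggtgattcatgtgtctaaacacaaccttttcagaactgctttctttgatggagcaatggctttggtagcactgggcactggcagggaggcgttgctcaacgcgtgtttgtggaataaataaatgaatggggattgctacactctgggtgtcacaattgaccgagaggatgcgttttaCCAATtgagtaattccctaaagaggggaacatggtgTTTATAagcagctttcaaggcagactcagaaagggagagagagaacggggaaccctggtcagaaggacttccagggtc
Gnmt, chr17:46729116-46729415, minus strand: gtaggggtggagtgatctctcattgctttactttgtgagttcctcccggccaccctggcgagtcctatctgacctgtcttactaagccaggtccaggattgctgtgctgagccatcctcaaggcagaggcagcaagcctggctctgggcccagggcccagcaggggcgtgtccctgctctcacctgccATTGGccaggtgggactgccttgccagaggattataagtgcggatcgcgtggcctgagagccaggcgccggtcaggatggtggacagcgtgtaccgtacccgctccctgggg
CCAAT stood in 37.4% of 32851 RefSeq promoters of this length and in 14 of the 20 promoters (70%) of the 18 list members found in that table. TATAAA stood in 13.6% of all promoters and in 4 of these 20. GTTAAT, also searched on both strands, stood in 7.10% of all and in 1 of the 20. These matches describe the letters of the window, and binding was not measured.

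Genes of the periportal zone, the hepatocytes around the incoming blood, mostly followed the same direction. Of 16 periportal genes measured, 15 had a mean difference below 0, with a median of -0.36 (-0.35 without animal 1347). In all 7 animals 4 were lower (25%, beside 0.879% over all features), namely Hal, Sds, Ass1 and Asl. The first 2 of these are also in the amino acid list. Ass1, argininosuccinate synthase, joins citrulline to aspartate, and Asl, argininosuccinate lyase, splits the product into arginine and fumarate. Ass1 had levels of 6.56, 8.01 and 8.25 in tumor, against 7.77, 8.33 and 9.02 in non-tumor tissue, a difference of -0.60 (SE 0.17). Asl differed by -0.57 (SE 0.17), from -1.08 in animal 1347 to -0.036 in animal 793. Albumin, or Alb (-0.10, SE 0.21), and the hepatocyte regulator Hnf4a (-0.16, SE 0.12) had smaller differences, and the 9 hepatocyte defining markers had a median of -0.11 (0.025 after quantile normalisation), with 8 of 9 below 0. In such bulk tissue, fewer cells of a type and less RNA per cell cannot be told apart, and the part of hepatocyte content in the lower metabolic genes was not tested.

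Pericentral genes, expressed around the central vein under beta-catenin signalling, had the lowest median of the lists, -0.56, with 18 of 18 mean differences below 0. This rested largely on 1 animal. The median by animal was -2.23 in 1347, -0.68 in 1287, 0.021 in 934, -1.14 in 1109, -0.32 in 638, 0.52 in 702 and 0.00017 in 793, and without animal 1347 it was -0.25, still with 18 of 18 below 0. Canonical targets were far lower in the tumor of animal 1347: Glul, glutamine synthetase, differed by -2.57 there, Axin2, a feedback inhibitor of the pathway, by -4.43, and Cyp2e1, the ethanol-oxidising P450, by -2.79. In animal 702 the same 3 genes differed by 1.21, 0.52 and 0.056. The stem cell receptor gene Lgr5, another target, lay between -1.69 in animal 1109 and 1.07 in animal 702.

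Some members of the pericentral list were lower with less dependence on that tumor. Rhbg, an ammonium transporter, was lower in 7 of 7 animals, with levels of 0.022, 1.89 and 4.04 in tumor, against 0.14, 2.73 and 4.34 in non-tumor tissue and a difference of -0.94 (SE 0.32), or -0.64 without animal 1347. Gulo, the last enzyme of vitamin C synthesis, was also lower in 7 of 7 (-0.62, SE 0.23), although a second probe of it was lower in 6 of 7. Rhbg and Gulo were the 2 of 18 pericentral genes lower in all 7 animals (11.1%, beside 0.879% over all features). Cyp1a2, which oxidises caffeine and aromatic amines, was lower in 6 of 7 animals (-0.77, SE 0.27). Its levels were 1.04, 2.38 and 4.23 in tumor, against 1.50, 3.15 and 5.49 in non-tumor tissue, with 3.97, 4.25 and 6.53 in wild-type liver.

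Cytochrome P450 genes, which oxidise drugs, steroids and fatty acids, had 37 of 40 mean differences below 0 and a median of -0.26. Without animal 1347 the median was -0.16 and 31 of 40 lay below 0. Over members well above background on all 14 arrays the median was -0.40. Cyp4f15, a fatty acid hydroxylase, was lower in 7 of 7 animals (-0.68, SE 0.16). It was the single gene of the list to be so (2.5%, beside 0.879% over all features). Cyp2c37, an arachidonic acid hydroxylase with near-identical family members that its probe may share, was lower in 6 of 7 (-1.12, SE 0.39, -0.84 without animal 1347). Bile acid genes had a median of -0.24 (-0.16 without animal 1347), with 13 of 20 below 0. Cyp7a1, the rate-limiting enzyme of bile acid synthesis, spread from -4.92 in animal 1347 to 1.97 in animal 702, and Cyp8b1, which makes cholic acid, from -2.50 to 0.48. Slc27a5, which links bile acids to coenzyme A, was lower in 7 of 7 animals, with a difference of -0.47 (SE 0.16), or -0.35 without animal 1347. It was the 1 bile acid gene of 20 to be so (5%, beside 0.879% over all features).

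Hamp, which encodes hepcidin, the hepatocyte hormone that closes the iron exporter ferroportin, was lower in tumor in 7 of 7 animals. Its level was 5.12, 7.58 and 7.82 in tumor, against 7.05, 8.22 and 8.53 in non-tumor tissue. The differences were -1.99 in animal 1347, -0.65 in animal 1287, -0.28 in animal 934, -0.61 in animal 1109, -0.71 in animal 638, -1.92 in animal 702 and -0.53 in animal 793, with a mean of -0.95 (SE 0.25). Wild-type livers spread as widely, at 5.77, 8.45 and 8.45, so the tumor levels of Hamp were not outside the wild-type range except in animal 702, at 5.12. Hamp2, a near-identical paralog whose probe may take up Hamp transcripts, was lower in 6 of 7 (-1.20, SE 0.41). Hfe, the haemochromatosis gene, which acts upstream of hepcidin, was lower in 7 of 7 (-0.37, SE 0.14), and Id1, a target of BMP signalling, in 6 of 7 (-0.49, SE 0.20). The iron list as a whole had 13 of 17 mean differences below 0 and a median of only -0.076. In all 7 animals 2 of the 17 were lower (11.8%, beside 0.879% over all features).

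The Hamp promoter is shown because hepcidin is set by iron through BMP signals and by inflammation through STAT3, and both are known to act near its start site. Capitals mark GGCGCC, the core of a BMP-responsive element. They also mark the letters TTCNNNGAA of a STAT site. Both were searched on both strands. The other motifs named above were searched too and had no match here.
Hamp, chr7:30943980-30944279, minus strand: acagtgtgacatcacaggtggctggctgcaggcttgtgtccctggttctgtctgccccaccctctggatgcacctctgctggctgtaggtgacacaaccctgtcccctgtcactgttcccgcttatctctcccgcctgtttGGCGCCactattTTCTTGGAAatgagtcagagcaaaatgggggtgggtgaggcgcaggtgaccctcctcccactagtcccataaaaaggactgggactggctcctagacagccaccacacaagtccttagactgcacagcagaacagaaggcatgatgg
GGCGCC began 109 bases and TTCNNNGAA 97 bases before the transcription start. GGCGCC stood in 11.9% of all promoters of this length and TTCNNNGAA in 8.30%.

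**Figure D3:**
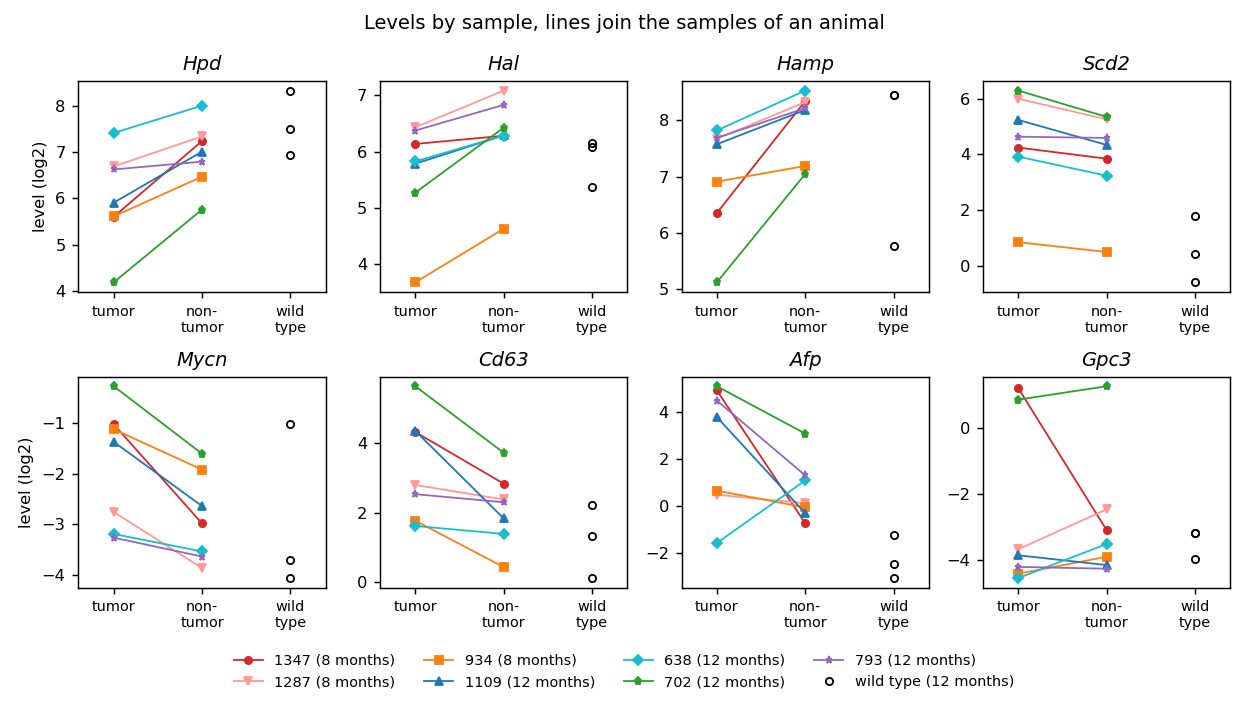
Levels (log2, vertical axis, with a scale per gene) of 8 genes in the tumor and non-tumor sample of each of 7 animals, joined by a line, and in 3 wild-type livers of 12 months. Hpd, Hal and Hamp lines climb toward non-tumor tissue in each animal, Scd2, Mycn and Cd63 lines descend in each, and Afp and Gpc3 lines differ between animals.

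Genes of fat synthesis and storage were mostly higher in tumor. Of 24 measured, 22 had a mean difference above 0, with a median of 0.26. In all 7 animals 2 were higher, beside 0.623% over all features. Animal 1347 went the other way, at -0.74, while the other 6 lay between 0.16 and 0.74, and without animal 1347 the median was 0.49. Scd2, a stearoyl-CoA desaturase typical of fetal rather than adult liver, had levels of 0.85, 4.64 and 6.29 in tumor, against 0.49, 4.34 and 5.35 in non-tumor tissue, and 1.80, 0.41 and -0.60 in wild-type liver. The differences were 0.40 in animal 1347, 0.74 in animal 1287, 0.35 in animal 934, 0.90 in animal 1109, 0.69 in animal 638, 0.95 in animal 702 and 0.044 in animal 793, with a mean of 0.58 (SE 0.15). The tumors thus lay modestly above a non-tumor liver that in 6 of 7 animals was above each wild-type sample, on other slides. Gpam, the mitochondrial acyltransferase that starts triglyceride synthesis, differed by 0.70 (SE 0.20), with levels of -1.36, 0.023 and 0.25 in tumor, against -2.17, -0.79 and 0.043 in non-tumor tissue. After normexp background correction Gpam differed by 0.45. Elovl6, which lengthens palmitate, was higher in 6 of 7 (0.60, SE 0.25), and Pnpla3, a lipid droplet gene, in 4 of 7, from -0.32 in animal 1347 to 3.15 in animal 1287.

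Cholesterol synthesis genes had 19 of 22 mean differences above 0 and a median of 0.27, which animal 1347 did not carry (0.25 without it). The squalene epoxidase gene Sqle was higher in 6 of 7 animals (0.45, SE 0.18), as was the sterol dehydrogenase gene Nsdhl (0.37, SE 0.15). Animal 793 was the exception for both, at -0.46 and -0.17.

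Fatty acid oxidation genes, many of them targets of the receptor PPAR-alpha, had a median of -0.054 with animal 1347 and 0.12 without it, and the count above 0 was 8 of 25 and 20 of 25 in turn. Fgf21, a hormone of the fasted and stressed liver, was higher in 6 of 7 animals, with levels of 0.22, 1.32 and 1.70 in tumor, against -1.58, 0.12 and 1.36 in non-tumor tissue, a difference of 1.24 (SE 0.40). Animal 793 was the exception, at -1.05. Vnn1, a pantetheinase under PPAR-alpha, differed by 1.15 (SE 0.43) and was lower in animal 1347. Hk2, the hexokinase that many tumors switch on, was higher in 6 of 7 (1.06, SE 0.38), with animal 1347 at -0.86. Pkm, the pyruvate kinase of fetal and tumor tissue, differed by 0.11 (SE 0.24), and the NRF2 target Nqo1 by 0.11 (SE 0.23), both higher in 4 of 7. Of the other NRF2 genes, Cbr3, a carbonyl reductase, was higher in 6 of 7 animals (0.99, SE 0.34), and the list had a median of 0.11, or -0.10 without animal 702. Gstm3, a glutathione transferase, differed by 0.011 (SE 0.23), in a fit that lacked animals 1109 and 793, where a spot carried an outlier mark.

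**Figure D4:**
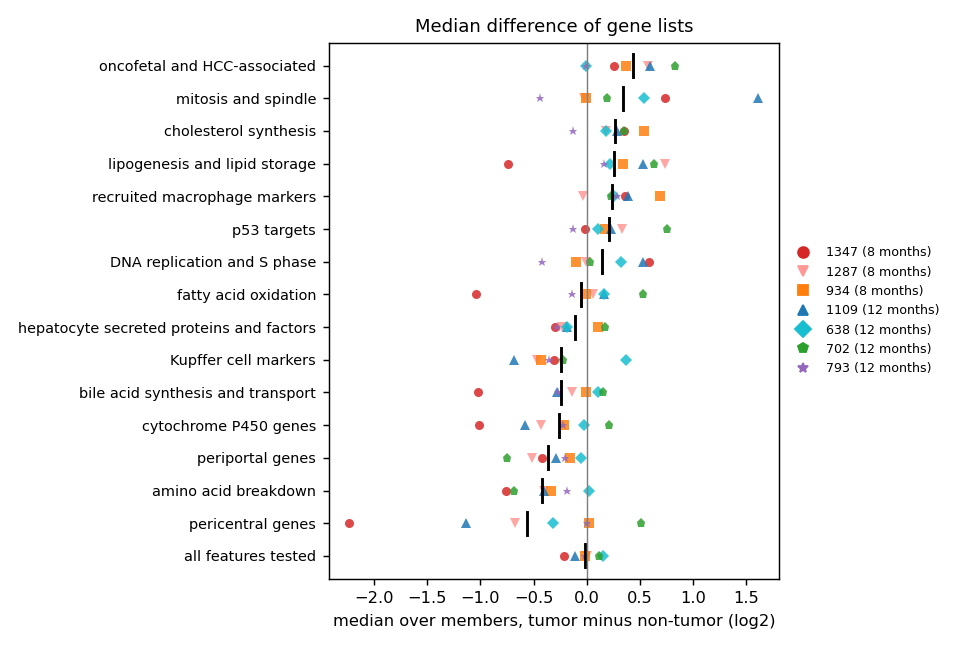
Median over list members of the difference between tumor and non-tumor tissue (log2, horizontal axis) for 15 gene lists and all features tested, with a symbol per animal and a black line at the median of the mean differences. Amino acid breakdown and periportal genes lie at or below 0 in at least 6 animals, whereas pericentral genes reach from -2.23 in animal 1347 to 0.52 in animal 702.

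Fetal and tumor-associated genes had 17 of 20 mean differences above 0 and the highest median of the 42 lists, 0.44 (0.24 after normexp correction). Without animal 1347 it was 0.45, below the 0.49 of the genes of fat synthesis and storage. Members of the list were high in different animals. Afp, alpha-fetoprotein, the fetal albumin, had levels of -1.56, 3.77 and 5.07 in tumor, against -0.73, 0.12 and 3.07 in non-tumor tissue, and -1.20, -3.04 and -2.47 in wild-type liver. Its differences were 5.62 in animal 1347, 0.36 in animal 1287, 0.71 in animal 934, 4.07 in animal 1109, -2.65 in animal 638, 2.00 in animal 702 and 3.17 in animal 793, so the tumors of 1347, 1109, 793 and 702 were far above their own liver, those of 1287 and 934 little, and that of 638 below it. The mean was 1.90 (SE 0.86), or 1.28 without animal 1347. Gpc3, glypican-3, a heparan sulphate proteoglycan used as a marker of hepatocellular carcinoma, was 1.22 in the tumor of animal 1347 against -3.11 in its non-tumor tissue. In the other 6 animals its difference lay between -1.22 and 0.30, and in animal 702 both tissues were high, at 0.88 in tumor and 1.29 in non-tumor tissue. Igf2, a fetal growth factor, ranged from -4.15 in animal 1347 to 3.21 in animal 1287. Its mean was -0.17 (SE 0.80), or 0.49 without animal 1347.

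Igf2bp3, an RNA-binding protein of fetal tissue and tumors, differed by 6.52 in animal 1109, 3.77 in 702 and 3.25 in 638, and by -1.04 to 0.88 in the other 4. It was well above background on 6 of 7 tumor arrays and 2 of 7 non-tumor arrays, so these sizes are uncertain, and after normexp correction the mean was 0.46 against 1.97. Ly6d, a surface protein of the LY6 family, had levels of 3.46, 5.68 and 8.01 in tumor, against 2.56, 4.62 and 5.37 in non-tumor tissue, and 2.45, 1.97 and -2.02 in wild-type liver. Tumors of 1109, 702 and 1287 were above their liver by 3.69, 3.30 and 2.47, while in 1347 and 793 the tissues differed by -0.026 and -0.03. Tff3, a secreted trefoil peptide, differed by 4.60 in animal 1347 and by -0.25 to 1.54 in the rest. Golm1, a Golgi protein released by liver tumors, was higher in 6 of 7 (1.03, SE 0.44), and Spp1, osteopontin, in 5 of 7 (0.94, SE 0.43).

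Imprinted growth genes had no common direction, with 7 of 13 mean differences above 0. Phlda2, a maternally expressed growth restrictor of the placenta, was higher in 5 of 7 animals (1.35, SE 0.52, 0.98 without animal 1347), and 2 probes gave the same direction. Dlk1, a fetal Notch-related ligand, was lower in 5 of 7 (-0.52, SE 0.21). Akr1c18, a hydroxysteroid dehydrogenase that inactivates progesterone, had the largest spread of the named genes with at least 7 arrays above background: its differences were 6.61 in animal 1347, 3.39 in animal 1287, 0.89 in animal 934, 8.36 in animal 1109, 1.55 in animal 638, 0.73 in animal 702 and -4.45 in animal 793. It was thus higher in 6 of 7 tumors and lower in that of animal 793, where the non-tumor level was 1.39.

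Genes of mitosis, which encode the spindle, the kinetochore and the cyclin B kinases, had 29 of 29 mean differences above 0 with a median of 0.34, and yet none was higher in all 7 animals. The median by animal was 0.74 in 1347, -0.022 in 1287, -0.0066 in 934, 1.62 in 1109, 0.54 in 638, 0.19 in 702 and -0.44 in 793, so the tumor of animal 1109 stood out above and that of animal 793 below its liver. The median of the mean differences was 0.14 without animal 1109 and 0.20 after normexp correction. The mean level over the list was -2.16, -0.60 and 0.45 in tumor, -2.19, -1.30 and 0.32 in non-tumor tissue, and -4.86 to -2.53 in wild-type liver, with tumor above non-tumor tissue in 5 of 7 animals. Ccnb1, cyclin B1, had levels of -3.17, -1.27 and 0.49 in tumor, against -3.97, -2.07 and 0.0065 in non-tumor tissue, a difference of 0.70 (SE 0.20), and 2 other probes of it were higher in 4 of 7. After normexp correction it differed by 0.39. Cenpe, a kinetochore motor, differed by 0.53 (SE 0.24), Cdk1, the mitotic kinase, by 0.62 (SE 0.29), and Kif20a, a midzone kinesin, by 0.48 (SE 0.22). Top2a, topoisomerase II alpha, was higher in 4 of 7 animals (0.26, SE 0.32).

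S phase genes had 23 of 28 mean differences above 0 and a smaller median of 0.14, or 0.059 after normexp correction. Tk1, thymidine kinase 1, went against this, lower in 7 of 7 animals with a difference of -0.48 (SE 0.14) and levels of 0.97, 1.93 and 2.63 in tumor, against 1.65, 2.37 and 2.95 in non-tumor tissue. Among G1 regulators, Ccne1, cyclin E1, was higher in 6 of 7 (0.99, SE 0.38), from -0.84 in animal 793 to 2.49 in animal 702. The inhibitor genes Cdkn2a (p16 and ARF), Cdkn2b (p15) and Cdkn1a (p21) differed by 0.95 (SE 0.26), 0.85 (SE 0.37) and 0.78 (SE 0.31). Cdkn2a was higher in 7 of 7 animals but well above background on only 4 tumor and 3 non-tumor arrays, and after normexp correction its difference was 0.16. Cdkn1a, also a p53 target, was higher by 1.92, 1.64 and 1.52 in animals 702, 1287 and 1109 and differed by -0.23 to 0.63 in the other 4.

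The p53 targets had 15 of 20 mean differences above 0 and a median of 0.21, with animal 702 at 0.75 and the other 6 between -0.13 and 0.33. Without animal 702 the list median was 0.12. Phlda3, an inhibitor of Akt, differed by 3.15 in animal 702 and 2.17 in animal 1109, and by -0.026 to 0.50 in the rest. Bax, the pore-forming effector that Mcl-1 restrains, was higher in 6 of 7 (0.45, SE 0.20), and Pmaip1 (NOXA), which binds Mcl-1, in 6 of 7 (0.33, SE 0.16). The BCL-2 family as a list had 8 mean differences above and 8 below 0. Downstream, Apaf1, the scaffold of the apoptosome, was higher in 7 of 7 animals (0.44, SE 0.12), although the dimmest of 3 probes differed by 0.02 and normexp correction gave 0.20.

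Growth drivers had 12 of 25 mean differences above 0. Mycn, the MYC family member of progenitor cells, was an exception, higher in 7 of 7 animals with differences of 1.96 in animal 1347, 1.11 in animal 1287, 0.80 in animal 934, 1.27 in animal 1109, 0.35 in animal 638, 1.33 in animal 702 and 0.37 in animal 793. Its level was -3.26, -1.37 and -0.27 in tumor, against -3.86, -2.98 and -1.60 in non-tumor tissue, and -1.02, -4.06 and -3.71 in wild-type liver, and 2 tumors, those of 702 and 1347, passed the highest wild-type level, 1347 barely. The mean was 1.03 (SE 0.21), or 0.41 after normexp correction, and a second, dim probe was higher in 5 of 7. Myc itself differed by 0.08 (SE 0.17). Yap1, the coactivator that the Hippo pathway holds back, was higher in 7 of 7 (0.45, SE 0.15), with levels of -0.39, 0.64 and 1.09 in tumor, against -0.54, 0.12 and 0.34 in non-tumor tissue, and 0.28 after normexp correction.

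Markers of resident and of recruited macrophages had medians of opposite sign. Kupffer cells are the resident macrophages of the sinusoids, and 11 of 13 of their markers had a mean difference below 0 (median -0.24). That median was -0.15 without animal 934 and -0.42 without animal 638. Clec4f, a lectin of Kupffer cells, had levels of 1.27, 2.06 and 4.21 in tumor, against 2.52, 3.20 and 3.98 in non-tumor tissue, a difference of -0.65 (SE 0.22). Folr2, a folate receptor, differed by -0.57 (SE 0.20), Timd4, a receptor for dying cells, by -0.75 (SE 0.30), and Marco, a scavenger receptor, by -0.80 (SE 0.33). After normexp correction Timd4 differed by -0.23, and without animal 1109 Marco differed by -0.47. Each of the 4 was lower in 6 of 7 animals, with animal 638 the exception, and animal 1109 had the lowest value of each, from -1.31 for Folr2 to -2.82 for Marco.

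Markers of recruited macrophages and monocytes had 11 of 13 mean differences above 0 and a median of 0.23, or 0.15 after normexp correction. The mean level over this list was higher in tumor in 7 of 7 animals, at -0.49, 1.33 and 1.54 in tumor, -1.09, 0.88 and 1.48 in non-tumor tissue, and -2.44 to -0.14 in wild-type liver. Cd63, a tetraspanin of lysosomes and exosomes that hepatocytes and tumor cells carry too, was higher in 7 of 7, with differences of 1.48 in animal 1347, 0.42 in animal 1287, 1.33 in animal 934, 2.52 in animal 1109, 0.23 in animal 638, 1.91 in animal 702 and 0.23 in animal 793. Its levels were 1.62, 2.80 and 5.64 in tumor, against 0.44, 2.30 and 3.73 in non-tumor tissue, and 2.22, 1.34 and 0.12 in wild-type liver. Cd9, another tetraspanin found on many cell types, was higher in 7 of 7 (0.68, SE 0.15). Ccr2, the receptor that draws monocytes out of the marrow, was higher in 6 of 7 (0.41, SE 0.16). The more restricted markers Trem2, Gpnmb, Itgax and Cx3cr1 were higher in 3, 4, 5 and 4 animals, named here after their values were seen. Other leukocyte lists had medians of -0.12 for neutrophils (0.10 without animal 934), -0.12 for T and NK cells and -0.029 for B and plasma cells.

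Sinusoidal endothelial markers had 10 of 14 mean differences below 0 and a median of -0.15, which was -0.012 without animal 1109 and -0.042 without animal 1347. Clec4g, a lectin of the liver sinusoid, was lower in 6 of 7 (-0.54, SE 0.21), and Dnase1l3, a nuclease from the same cells, in 6 of 7 (-0.52, SE 0.21). Among vascular genes, Esm1, a product of sprouting endothelium, was higher in 5 of 7 (0.85, SE 0.33), with animal 934 at 2.07 and animal 1109 at -0.81. Cd34, a marker of capillaries that sinusoids largely lack, was higher in 6 of 7 (0.41, SE 0.18). Aplnr, the apelin receptor, differed by 0.49 (SE 0.20) on one probe and by -0.57 on another, so it has no settled direction. The vascular list had a median of 0.024.

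Matrix genes had 14 of 25 mean differences above 0. Col4a1 and Col4a2, the neighbouring genes of basement membrane collagen, differed by 0.62 (SE 0.19) and 0.74 (SE 0.30), each higher in 6 of 7 animals, with animal 1347 at 1.54 and 2.57. Col1a2, of fibrillar collagen, was higher in 6 of 7 (0.55, SE 0.22), whereas Col5a2, which shapes those fibrils, was lower in 5 of 7 (-0.80, SE 0.33). The list median was -1.05 in animal 1347 and -0.31 to 0.55 in the other 6. Cholangiocyte and progenitor markers had 11 of 17 above 0. Anxa13, an annexin of epithelia, was higher in 6 of 7, with levels of -0.99, 1.09 and 4.80 in tumor, against -1.33, 0.0018 and 0.38 in non-tumor tissue, a difference of 1.83 (SE 0.54). Prom1, a progenitor surface protein, differed by 0.52 (SE 0.21), and Krt19, the keratin of bile ducts, by -0.68 (SE 0.36), lower in 5 of 7.

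The remaining lists had medians between -0.23 and 0.10. Mean differences lay above 0 for 10 of 15 regulators of G1 (median 0.10), 13 of 16 DNA damage checkpoint and repair genes (median 0.081), 13 of 25 death receptor, caspase and necroptosis genes (median 0.037), 5 of 31 secreted proteins and factors of hepatocytes (median -0.11), 14 of 30 glycolysis, gluconeogenesis and pentose phosphate genes (median -0.021). The same held for 10 of 20 unfolded protein and amino acid stress genes (median -0.0076), 12 of 21 acute phase proteins (median 0.027), 18 of 26 interferon response and antigen presentation genes (median 0.074), 10 of 25 chemokines and cytokines (median -0.043), 8 of 18 AP-1 and immediate early genes (median -0.011). It held for 8 of 18 clock genes (median -0.032), 3 of 10 male-biased liver genes (median -0.12), 4 of 15 female-biased liver genes (median -0.21), 3 of 5 sex chromosome transcripts (median 0.031) and 0 of 5 erythroid markers (median -0.23). Some medians hung on animal 1347: without it, matrix genes had a median of 0.21, imprinted genes of 0.36, erythroid markers of -0.11, NRF2 genes of 0.18, T and NK cell markers of -0.30, interferon and antigen presentation genes of -0.022 and female-biased genes of 0.0049. In the tumor of animal 1347 itself, T and NK cell markers had a median of 0.83, against the opposite sign in animals 702 (-0.75) and 1109 (-0.60). Rsad2, an antiviral interferon-induced gene, was higher in 6 of 7 animals (0.44, SE 0.20). The serine synthesis genes Psat1 and Phgdh were each higher in 6 of 7, with differences of 1.01 (SE 0.48) and 0.78 (SE 0.43), and animal 1347 had the highest values, at 3.03 and 2.90.

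The features with the smallest unadjusted p are named after their values were seen. Ang2, a ribonuclease of the angiogenin family, was lower in 7 of 7 tumors, with levels of -2.32, -0.045 and 1.45 in tumor, against -0.36, 1.31 and 2.45 in non-tumor tissue and differences of -2.09 to -0.64, with a mean of -1.21 (SE 0.19). Ang, angiogenin itself, was lower in 7 of 7 (-0.88, SE 0.19), but the 2 genes are close copies and a probe of one may take up transcripts of the other. Gprc5b, an orphan receptor, was higher in 7 of 7 (1.36, SE 0.30), with levels of 0.45, 1.28 and 3.16 in tumor, against -1.06, -0.011 and 0.92 in non-tumor tissue. Tcf15, a transcription factor of somites and of endothelium, was higher in 7 of 7 (1.38, SE 0.28, 0.49 after normexp correction), and Htra4, a secreted protease, was lower in 7 of 7 (-1.04, SE 0.19, -0.15 after normexp correction), with 7 of its 14 arrays well above background.

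The ages were also fitted apart. At 8 months (3 pairs) 0 of 24581 features passed (0% called, smallest adjusted p 0.294, limma), with 1735 (7.06%) below an unadjusted p of 0.05. At 12 months (4 pairs) 0 passed (0% called, smallest adjusted p 0.9998, limma), with 750 (3.05%) below the unadjusted 0.05. The difference between the ages, as an interaction in the same fit, was passed by 0 features (0% called, smallest adjusted p 0.381, limma), with 1493 (6.07%) below the unadjusted 0.05. Animal 1347 is 1 of the 3 pairs at 8 months, and the count at 8 months was 0 without it too, with 1055 below an unadjusted p of 0.05. Fatty acid oxidation genes had a median of -0.31 at 8 months and 0.25 at 12 months, amino acid breakdown genes -0.56 and -0.26, and mitosis genes 0.19 and 0.44. These list medians were not tested for a difference between ages.

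For each animal, genes were named whose difference lay farthest beyond that of the nearest other animal, a rule that finds genes for any animal. Some of these differences rest on an unusual non-tumor sample, with the tumor inside the range of the other tumors. Dmbt1 in animal 1109 is an example, at -5.30 in tumor (other tumors -6.29 to -3.22) and 1.87 in non-tumor tissue. In animal 1347 the genes so named were Gpc3 (above) and Bcl11b, a T cell transcription factor, at 4.07. Lower in that tumor were the receptor genes Olfr352 (-5.17) and Vmn1r82 (-4.94). In animal 1287, Them6, a thioesterase-like gene, differed by 5.30 and the mast cell protease gene Cpa3 by 4.71, while Eomes, a transcription factor of cytotoxic lymphocytes, differed by -5.82. There 3110040N11Rik differed by -9.54, where the non-tumor level was 9.82 and the other 13 arrays lay between 0.092 and 1.19. In animal 934, the small GTPase gene Rab42 differed by 5.33 and Zfp36l2, an RNA-destabilising factor, by 4.76. Rab42 was higher in 7 of 7 tumors, by 0.17 to 0.98 in the other 6. Frmd5, a membrane-cytoskeleton adaptor, and Scimp, an adaptor of antigen-presenting cells, differed by -5.20 and -4.57 in that animal. For 14 of the 28 genes named in this way, 1 array of the animal was not well above background, so that the size is uncertain; these were Bcl11b, Olfr352, Vmn1r82, Cpa3, Them6, Eomes, Frmd5, Scimp, Nppc, Slc5a1, Btbd16, Raver2, Npnt and Hsf2.

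In animal 1109, Nppc, which encodes C-type natriuretic peptide, differed by 7.35, at 0.33 in tumor against -7.01 in non-tumor tissue, where it was not well above background. The sodium-glucose transporter gene Slc5a1 differed by 4.32 there. Dmbt1, a mucosal scavenger protein of ducts, differed by -7.17, and the intestinal keratin gene Krt20 by -4.12, whereas Krt20 was higher by 4.78 in animal 1287, 4.78 in 702 and 4.03 in 1347. In animal 638, Btbd16 and Raver2, an RNA-binding corepressor, differed by 3.95 and 3.09 from non-tumor levels not well above background. Cfd, adipsin, a product of fat cells, differed by -6.97 in animal 638 and by 5.51 in animal 702. Npnt, nephronectin, differed by 4.88 in animal 702, the protease inhibitor gene A2ml1 by -3.83 and the Wnt antagonist gene Sfrp4 by -3.92. In animal 793, the Wnt receptor gene Fzd2 differed by 4.34, the heat shock factor gene Hsf2 by 3.52 and Mtfr2, a mitochondrial fission gene, by -4.49, although a second Mtfr2 probe was higher in 4 of 7 animals. By spread alone, Rhox5, a reproductive homeobox gene of the X chromosome, ranged from -3.45 to 5.59 over animals, Bglap, osteocalcin, from -3.80 to 5.02, Lrp2bp, a megalin-binding protein, from -4.07 to 4.56, and Lars2, the mitochondrial leucyl-tRNA synthetase, from -4.76 to 4.37.

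Differences were also arranged by chromosome, over mapped genes well above background on all 14 arrays, as each chromosome's median minus the median of all autosomal genes. In the tumor of animal 1347, the 395 genes of chromosome 14 had a median of -0.37, against a range of -0.095 to 0.10 between non-tumor samples of 2 animals of the same age. With the genes of chromosome 14 cut into 4 equal groups in order of position, the medians in this animal were -0.33, -0.36, -0.37 and -0.38, so the lower level ran along the whole chromosome. Chromosome 2 had a median of 0.19 in the same tumor (non-tumor range -0.037 to 0.067), with -0.37 to 0.19 spanning the 19 autosomes.

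The tumor of animal 1109 had 8 of 19 chromosomes beyond the largest value between non-tumor samples. They included chromosome 13 at -0.29 (non-tumor range -0.15 to 0.19), chromosome 17 at -0.26 (-0.078 to 0.072) and chromosome 19 at -0.21 (-0.18 to 0.15) on the low side, and chromosome 5 at 0.15 (-0.04 to 0.028) and chromosome 15 at 0.13 (-0.10 to 0.052) on the high side. The tumor of animal 702 had 5 such chromosomes, among them chromosome 19 at -0.27 and chromosome 15 at 0.19, with medians of -0.31, -0.25, -0.22 and -0.32 in 4 such groups along chromosome 19. Tumors of 1287 and 638 had 1 each, and those of 934 and 793 had 0, with medians of -0.035 to 0.049 over their 19 autosomes. DNA was not measured, and what lies behind these medians was not tested.

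**Figure D5:**
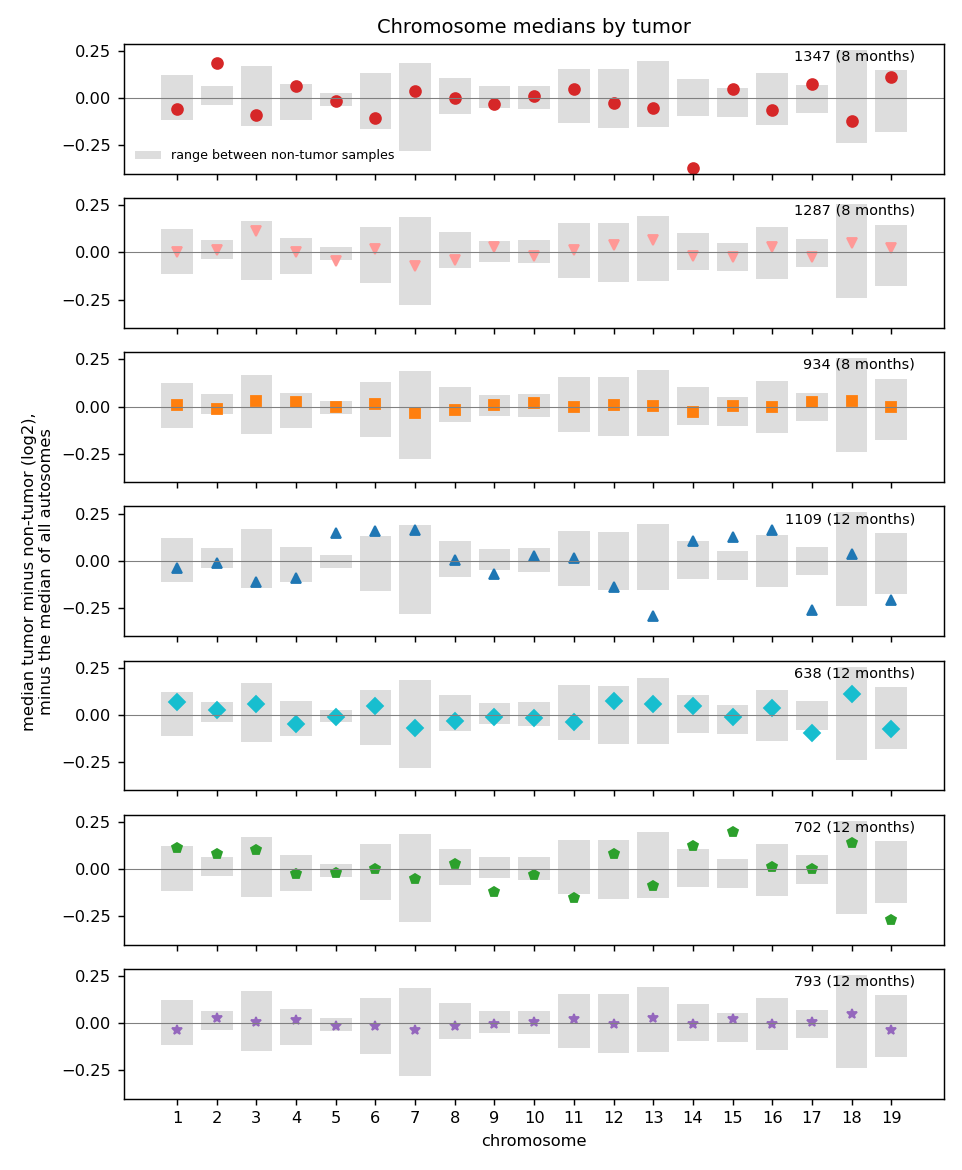
Median difference between tumor and non-tumor tissue per autosome (log2, minus the median of all autosomes, vertical axis; chromosome number, horizontal axis), with a panel per animal. Grey bars give the range of the same median between non-tumor samples of 2 animals of the same age, and chromosome 14 in animal 1347, at -0.37, lies farthest outside them.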

How the data were processed

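Gene expression of 25 liver samples was measured on one-colour arrays, of which 14 (7 tumor and 7 non-tumor) were compared, with 3 wild-type arrays of 12 months for levels. The authors deposited scanner intensity values per spot from Agilent Feature Extraction 10.5.1.1, per the file headers, background-subtracted and detrended within the array but not normalised between arrays. A matrix of log2 values was deposited too; the submitters' processing notes name limma without its role.

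Spots without an outlier mark were averaged per probe after log2, and the array's 75th percentile was subtracted. Of 41174 probes, 24375 (59.2%) took a symbol from RefSeq GRCm38.p6 through their accession. A gene was represented by its brightest probe, and kept if well above background on at least 3 of 14 arrays. A missing spot drops that animal from a gene's fit. Differences were fitted with limma 3.58.1 in R 4.3.3, with the animal as a fixed block (6 residual degrees of freedom, 5 with ages apart), two-sided, with a Benjamini-Hochberg threshold of 0.05 over the whole table. The script was tested on simulated data.

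The pairing comes from the animal numbers in the labels. Tumor deviations from the mean of age and tissue correlated best with their own non-tumor sample in 5 of 7 animals (r = 0.23 to 0.62), and not in animals 1347 (0.14) and 793 (0.27). The number of arrays limits the precision, and animals are the replicates.

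Members and 42 gene lists (820 of 865 entries on the array) were chosen with earlier results of these data known. Ccnd1, Mki67 and H19 were not measured here under a symbol. Genes were named by a rule: Mcl1; genes past the threshold (there were 0); the 4 members with the smallest p of each list described; a panel of markers; the 8 largest spreads; and 2 genes each way per animal farthest beyond the other 6. Others are marked where they appear, and some genes that the rule names are not reported here. Alternatives were another background correction (normexp on the median signal, since the files hold no mean signal), other scalings, filters, probe averaging, the matrix, trend and robust options, other blocks, and each animal left out.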

Additional observations from a re-analysis of the deposited data

Results flagged for a closer look

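Over the 7 paired differences, 169 reported results were screened for an animal that lay far from the other 6 (its gap to the nearest other animal, over the whole range, above Dixon's critical value). Chance alone marks about 1 in 20 such groups, and 28 of the 169 were marked. Genes named for standing out in a single animal were chosen by that very measure, so their marks add nothing. Animal 1347 stood apart in the difference between tumor and non-tumor tissue of Cyp2e1 (-2.79), Axin2 (-4.43), Slc27a5 (-1.21), Gpc3 (4.33), Tff3 (4.60), Bcl11b (4.07), Olfr352 (-5.17), Vmn1r82 (-4.94). It also did in the list medians of bile acid synthesis and transport (-1.03), fatty acid oxidation and PPAR-alpha targets (-1.04), lipogenesis and lipid storage (-0.74). The share of features that differed by more than 1 was 29.5% in this animal, the one pair whose arrays were on different slides and scan days. Animal 1287 stood apart in the difference between tumor and non-tumor tissue of 3110040N11Rik (-9.54), Them6 (5.30). Animal 934 stood apart in the difference between tumor and non-tumor tissue of Rab42 (5.33), Zfp36l2 (4.76), Frmd5 (-5.20), Scimp (-4.57). Animal 1109 stood apart in the difference between tumor and non-tumor tissue of Marco (-2.82), Nppc (7.35), Slc5a1 (4.32), Dmbt1 (-7.17). Animal 702 stood apart in the difference between tumor and non-tumor tissue of A2ml1 (-3.83), Sfrp4 (-3.92). Animal 793 stood apart in the difference between tumor and non-tumor tissue of Sqle (-0.46), Fzd2 (4.34), Hsf2 (3.52), Mtfr2 (-4.49).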

How the results depend on the processing

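The count of features past the threshold was 0 in all 4 comparisons (tumor against non-tumor over all animals, at 8 months, at 12 months, and between the ages) under each alternative run, and leaving out each animal gave 0 to 0. For the comparison over all animals, the smallest adjusted p over alternatives ran from 0.274 (trend and robust options) to 0.99997 (slide as block), and the count below an unadjusted p of 0.05 from 233 without the replicate block to 1421 with normexp and quantile normalisation, against 998. With no replicate block (tissue and age only) 0 features passed in each of the 4 comparisons, and with the animal as a random block (consensus correlation 0.43) also 0. With the slide in place of the animal 0 passed and 244 were below the unadjusted 0.05. At 8 months the smallest adjusted p came nearest to the threshold after quantile normalisation of the processed signal, at 0.0586. The 42 list medians gave 839 values under the alternatives, and 839 moved by less than the SD between animals. That limit is wide, and leaving out 1 animal can hardly pass it, so it says little about stability. Glycolysis genes changed sign in 8 of 20 settings, B and plasma cell markers in 9 and the BCL-2 family in 6. Amino acid breakdown and mitosis genes did so in 0 of 20. Of 2479 values of 126 genes, 10 moved by more than the SD between animals. Normexp correction gave 6 of them: Nsdhl (0.69), Cdkn2a (0.16), Apaf1 (0.20), Mycn (0.41), Tcf15 (0.49) and Htra4 (-0.15). With the matrix values Nsdhl was 0.74, Apaf1 0.29 and Htra4 -0.35, and with the mean of all probes Aplnr was -0.04; the cause was not tested. The 11 chromosome medians beyond 0.15 in size moved by less than the spread between chromosomes with quantile normalisation and with a filter at 7 of 14 arrays. Dim probes, not well above background on an array, set a limit to the size of the differences of Cdkn2a, Igf2bp3, Htra4 and Nppc.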
